A study of Mus musculus with 5 samples.

Results

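Splicing removes introns from nuclear transcripts, and its first step is the pairing of the U1 small nuclear ribonucleoprotein (U1 snRNP) with the 5′ splice site. SR proteins, named for their arginine and serine dipeptides, bind exons and recruit U1 and U2 components, CLK kinases phosphorylate them, and heterogeneous nuclear ribonucleoproteins (hnRNPs) often act against them. Many of these proteins sit in nuclear speckles, and several of their own genes are known to produce transcripts with retained introns or poison exons. Here the transcript levels of 43 such genes were followed, mouse by mouse, in isolated brain microvessels. They comprise 7 U1 snRNP and Sm proteins, 2 AKAP8 proteins, 10 SR proteins, 4 CLK kinases, 9 SR-related and U1 auxiliary proteins, 2 DEAD-box helicases, 3 factors of 3′ splice site recognition and 6 hnRNPs.

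The 43 genes were selected by symbol, out of 34615 symbols in the data, around *Snrnp70* and *Akap8l*, which the comparison of the genotypes in these same mice had singled out. The difference between genotypes is therefore given as a description of the members, without a test. Each of the 43 had 1 matching gene identifier, and all 43 passed the filter (an average of 1 FPKM or more over the 5 mice) that left 16286 symbols. FPKM counts sequenced fragments relative to transcript length and to all mapped fragments. Levels can thus be set side by side between genes, but only roughly. Division by length can raise those of short genes, and removal of duplicates can lower high ones.

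RNA came from brain microvascular fragments of 3 WT mice and 2 heterozygous Ins2-AKITA mice, with 1 library per mouse. All were males on a C57BL6 background, 26 to 38 weeks of age, and the WT mice were littermates. The AKITA allele is a point mutation of the insulin gene *Ins2* that kills pancreatic beta cells and leaves the mice hyperglycemic; since the allele acts in the pancreas, no transcript level in vessels can check the genotype labels. The fragments were pulled out of collagenase-treated brain with beads that bind PECAM1 on endothelium, and they carry pericytes and astrocyte end-feet along. All 10 endothelial and all 8 pericyte marker genes were above 0 in every mouse. So were all 7 astrocyte, 6 oligodendrocyte and 7 neuron markers, which makes this no measure of purity. A member's value is therefore that of a mixture of cells. The depth, estimated from the steps between low FPKM values, was 1127066 to 1317284 fragments in 4 of the mice and 2845090 in WT replicate 3.

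The members differed widely in level (plot of FPKM by mouse). *Luc7l3*, *Srrm2* and *Srsf11* had the highest WT means, 232 ± 54.9, 216 ± 56.0 and 196 ± 67.6 FPKM (SD, n = 3). *Snrpc*, *Srsf7* and *Srsf3* had the lowest, 9.24 ± 0.678, 15.3 ± 5.19 and 15.8 ± 2.66 FPKM. Of the 42 pairs of neighbours in this order, 40 had means closer than the larger of their SDs. Behind the values stood an estimated 4 to 3514 fragments per member and mouse, and 5 members had fewer than 20 fragments in at least 1 mouse, so that counting error alone is large for short genes such as *Snrpc* and *Snrpd2*. For 23 of the 43 members the highest WT mouse was at least 1.5-fold above the lowest, with a median of 1.52-fold over all members. The same share was not computed over all genes tested, so this spread does not set the members apart from other genes.

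**Figure D1:**
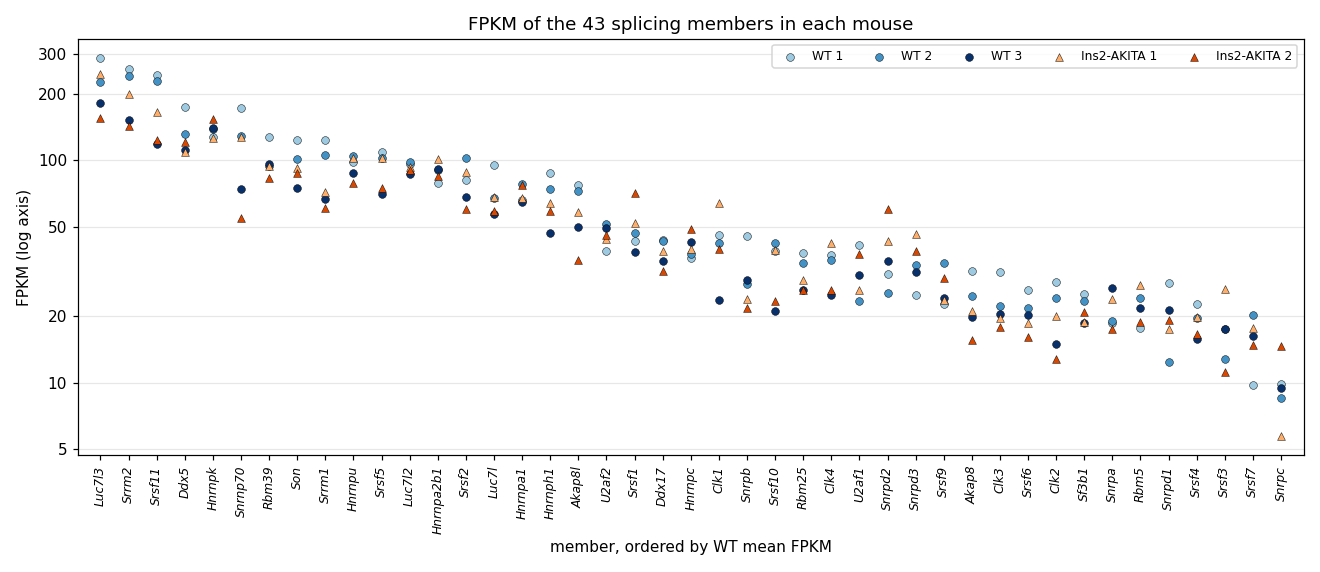
FPKM (log axis) of the 43 splicing members in each of 5 mice, with members ordered from left to right by their mean in WT mice (circles, WT; triangles, Ins2-AKITA). Levels run from *Luc7l3*, with a WT mean of 232, to *Snrpc*, with 9.24, and the triangles overlap the circles for 37 members.

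The counts of members that follow are set beside those over the 16286 genes tested. Of all these genes, 10.3% had both Ins2-AKITA values below every WT value and 9.24% had both above. Replicate 3 was the lowest of the WT mice for 40.1%, Ins2-AKITA replicate 2 was below Ins2-AKITA replicate 1 for 50.4%, and both held for 25.1%.

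*Snrnp70* (ENSMUSG00000063511) encodes U1-70K, the U1 protein that SR proteins contact at the 5′ splice site. It lies on the minus strand of chromosome 7 from 52631824 to 52651062 (NCBIM37). WT replicates 1 to 3 had 173, 128 and 74.7 FPKM, against 127 and 55.3 FPKM in Ins2-AKITA replicates 1 and 2. Within each genotype 1 mouse was low: WT replicate 3 lay 2.31-fold below WT replicate 1, and Ins2-AKITA replicate 2 lay 2.30-fold below Ins2-AKITA replicate 1. The means were 125 ± 49.1 FPKM in WT (SD, n = 3) and 91.1 ± 50.7 FPKM in Ins2-AKITA mice (SD, n = 2), a log2 difference of -0.49 (standard error 0.47). That difference was 0.10 without Ins2-AKITA replicate 2 and -1.08 without Ins2-AKITA replicate 1. It was -0.22 without WT replicate 1 and -0.82 without WT replicate 3. An annotated small nucleolar RNA gene, *SNORA67*, lies within *Snrnp70* on the opposite strand, and it was listed at 0 in every mouse.

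The other U1-specific proteins did not share this order of mice. *Snrpa*, whose protein binds a stem loop of U1 RNA, had 18.5, 18.9 and 26.7 FPKM in WT and 23.8 and 17.5 FPKM in Ins2-AKITA mice. *Snrpc*, whose protein steadies the pairing of U1 with the splice site, had 9.82, 8.5 and 9.42 FPKM in WT and 5.73 and 14.7 FPKM in Ins2-AKITA mice, from an estimated 4 to 17 fragments per mouse. WT replicate 3 was thus the highest WT mouse for *Snrpa*, and the lowest for *Snrnp70* alone among the 7 genes of this role.

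The Sm proteins form the ring around the U1, U2, U4 and U5 RNAs. Of the 4 Sm genes among the members, 3 had both Ins2-AKITA values outside the WT range, in opposite directions. Over all genes tested, 10.3% had both values below that range and 9.24% had both above it. *Snrpb* had 45.5, 27.8 and 29.1 FPKM in WT and 23.8 and 21.7 FPKM in Ins2-AKITA mice, a log2 difference of -0.53 (standard error 0.27). *Snrpd2* had 30.9, 25.3 and 35.4 FPKM in WT and 43.4 and 60.6 FPKM in Ins2-AKITA mice, a log2 difference of 0.74 (standard error 0.24). *Snrpd3* had 24.9, 33.9 and 31.6 FPKM in WT and 46.8 and 39.3 FPKM in Ins2-AKITA mice, a log2 difference of 0.51 (standard error 0.22). *Snrpd1* overlapped, with 12.4 to 28.0 FPKM in WT and 17.4 to 19.2 FPKM in Ins2-AKITA mice. These are short transcripts, and *Snrpd2* and *Snrpd3* rest on an estimated 11 to 39 fragments per mouse.

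*Akap8* and *Akap8l* are neighbours on the minus strand of chromosome 17 and encode nuclear A-kinase anchoring proteins that associate with chromatin and RNA-binding proteins. *Akap8l* (positions 32458370-32487540) had 77.3, 72.6 and 50.1 FPKM in WT and 58.9 and 35.6 FPKM in Ins2-AKITA mice. *Akap8* (positions 32440621-32458098) had 31.8, 24.5 and 19.7 FPKM in WT and 21.0 and 15.5 FPKM in Ins2-AKITA mice. Both were lowest in Ins2-AKITA replicate 2, and for both Ins2-AKITA replicate 1 lay above WT replicate 3, so that the genotypes overlapped. The log2 differences were -0.51 (standard error 0.30) and -0.44 (standard error 0.27), and that of *Akap8l* was -0.15 without Ins2-AKITA replicate 2 and -0.86 without Ins2-AKITA replicate 1.

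Promoter sequences were read for the 38 members that matched an entry used here from RefSeq (build GRCm38.p6, a later build than that of the gene positions above). Each promoter runs from 250 bases before to 50 bases after the annotated start. Printed here are *Snrnp70*, the member with the widest WT range, *Akap8l*, which shared its order of mice, and *Hnrnpk*, the member with the narrowest WT range. Capitals mark any of 7 short motifs, searched on both strands. The letters CCGGAAG stand for sites of ETS factors, while CCAAT is the box bound by NF-Y, and the GC box is written GGGCGG in this search. The E box is CACGTG, the promoter element of TBP was searched as TATAAA, and the palindrome of NRF1 has TGCGCA as a part. Lastly, sites of YY1 were searched as ATGGCGG. No motif contains another.
Snrnp70, chr7:45395693-45395992, minus strand: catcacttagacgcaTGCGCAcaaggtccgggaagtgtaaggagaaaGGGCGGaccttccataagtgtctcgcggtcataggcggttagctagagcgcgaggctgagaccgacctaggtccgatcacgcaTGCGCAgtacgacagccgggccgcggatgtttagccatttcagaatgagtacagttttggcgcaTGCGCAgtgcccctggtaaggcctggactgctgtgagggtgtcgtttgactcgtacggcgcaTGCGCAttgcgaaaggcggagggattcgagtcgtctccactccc
Akap8l, chr17:32350528-32350827, minus strand: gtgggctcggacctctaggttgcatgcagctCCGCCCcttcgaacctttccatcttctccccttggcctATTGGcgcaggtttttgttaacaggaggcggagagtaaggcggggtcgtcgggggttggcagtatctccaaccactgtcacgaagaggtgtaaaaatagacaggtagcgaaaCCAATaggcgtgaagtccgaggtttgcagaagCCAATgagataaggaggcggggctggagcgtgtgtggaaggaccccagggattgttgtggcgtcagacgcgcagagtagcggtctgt
Hnrnpk, chr13:58402068-58402367, minus strand: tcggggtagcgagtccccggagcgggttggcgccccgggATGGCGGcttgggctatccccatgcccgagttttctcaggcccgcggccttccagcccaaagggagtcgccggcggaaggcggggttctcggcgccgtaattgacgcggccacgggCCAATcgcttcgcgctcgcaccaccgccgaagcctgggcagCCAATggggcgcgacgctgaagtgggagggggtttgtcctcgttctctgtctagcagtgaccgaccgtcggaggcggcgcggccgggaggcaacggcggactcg

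The *Snrnp70* promoter held 4 copies of TGCGCA, and 6 of 17492 protein-coding genes (0.0343%) had at least 4 copies in a promoter of this length. The *Akap8l* promoter and that of *Hnrnpk* had no copy. Over the 38 members, 15 promoters (39.5%) held TGCGCA, against 11% of protein-coding genes, and 8 (21.1%) held ATGGCGG, against 6.05%. CCGGAAG was found in 9 (23.7%, against 12.9%), GGGCGG in 27 (71.1%, against 49.2%) and CCAAT in 20 (52.6%, against 42.3%). CACGTG was found in 3 (7.89%, against 8.91%) and TATAAA in 6 (15.8%, against 14.8%). The 17492 genes were not limited to those that passed the FPKM filter, whereas all members did, so the shares among expressed genes may differ. These are matches of letters in 1 window, with no measure of binding.

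Among the 10 SR proteins, 2 genes had both Ins2-AKITA values outside the WT range, beside 10.3% of all genes below it and 9.24% above it. *Srsf1*, the founding member of the family, had 43.6, 47.1 and 38.7 FPKM in WT and 52.1 and 71.5 FPKM in Ins2-AKITA mice (log2 difference 0.50, standard error 0.21). *Srsf6* had 26.0, 21.6 and 20.2 FPKM in WT and 18.5 and 16.1 FPKM in Ins2-AKITA mice (log2 difference -0.36, standard error 0.21). The first lay above and the other below the WT mice.

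The remaining 8 SR genes overlapped between genotypes, and 7 of the 10 SR genes were lowest, within WT, in replicate 3, while Ins2-AKITA replicate 2 was the lower Ins2-AKITA mouse for 8 of the 10. *Srsf11*, the most abundant of them, had 242, 228 and 119 FPKM in WT and 165 and 124 FPKM in Ins2-AKITA mice. *Srsf10*, a splicing repressor when it loses its phosphates, had 39.0, 42.4 and 20.9 FPKM in WT and 39.6 and 23.3 FPKM in Ins2-AKITA mice. *Srsf5* had 109, 103 and 70.8 FPKM in WT and 103 and 75.4 FPKM in Ins2-AKITA mice. In all 3 genes WT replicate 3 and Ins2-AKITA replicate 2 lay close together, below the other mice of their genotypes. *Srsf2* (SC35) spanned 68.3 to 102 FPKM in WT and 60.7 to 88.9 FPKM in Ins2-AKITA mice, and *Srsf4* spanned 15.6 to 22.5 FPKM and 16.5 to 19.7 FPKM. *Srsf3*, which also carries mRNA out of the nucleus, had 17.4, 12.8 and 17.3 FPKM in WT but 26.4 and 11.2 FPKM in the Ins2-AKITA mice, the widest fold between the latter in this family (2.36). *Srsf7* (9.78 to 20 FPKM in WT) and *Srsf9* (22.5 to 34.4 FPKM in WT) overlapped without that order.

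All 4 CLK kinases had WT replicate 3 as the lowest WT mouse and Ins2-AKITA replicate 2 below Ins2-AKITA replicate 1. *Clk1* had 46.0, 42.3 and 23.6 FPKM in WT and 64.5 and 39.9 FPKM in Ins2-AKITA mice. *Clk2* had 28.5, 24.1 and 15.0 FPKM in WT and 20 and 12.8 FPKM in Ins2-AKITA mice. *Clk4* had 37.6, 35.5 and 24.7 FPKM in WT and 42.5 and 26.0 FPKM in Ins2-AKITA mice. The order of mice inside a genotype was shared, whereas the log2 differences between genotypes were 0.49 (standard error 0.36), -0.42 (standard error 0.34) and 0.05 (standard error 0.30). *Clk3* had both Ins2-AKITA values (19.5 and 17.8 FPKM) below the WT values (31.3, 22 and 20.4 FPKM), with a log2 difference of -0.36 (standard error 0.25), and Ins2-AKITA replicate 1 lay close under WT replicate 3.

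The SR-related and U1 auxiliary proteins include the speckle scaffolds SON and SRRM2, the splicing coactivator SRRM1, the relatives of yeast Luc7 that help U1 choose 5′ splice sites, and the RNA-binding proteins RBM5, RBM25 and RBM39. Ins2-AKITA replicate 2 was below Ins2-AKITA replicate 1 for all 9 genes, and 7 were lowest, within WT, in replicate 3. *Luc7l3* had 289.8, 224 and 181 FPKM in WT and 246 and 156 FPKM in Ins2-AKITA mice. *Srrm2* had 257, 239 and 152 FPKM in WT and 199.6 and 143 FPKM in Ins2-AKITA mice. *Srrm1* had 124, 106 and 66.8 FPKM in WT and 72.3 and 61.2 FPKM in Ins2-AKITA mice, the most negative log2 difference of this role (-0.52, standard error 0.29). All 9 genes overlapped between genotypes. *Son* spanned 74.8 to 123 FPKM in WT, *Luc7l* 57.3 to 95.5, *Rbm25* 26.0 to 38.1 and *Rbm39* 94.5 to 128. *Luc7l2* varied little, with 86.8 to 98.1 FPKM over all 5 mice, and *Rbm5* was the only gene of the role with a higher mean in Ins2-AKITA mice (log2 difference 0.11, standard error 0.26).

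That order of mice, with WT replicate 3 and Ins2-AKITA replicate 2 the lowest of their genotypes, held for 1 of the 2 helicases, 0 of the 3 factors of the 3′ splice site and 2 of the 6 hnRNPs. *Ddx5* and *Ddx17*, paralogous RNA helicases, had WT means of 139 ± 32.3 and 40.8 ± 4.76 FPKM and Ins2-AKITA means of 115 ± 9.05 and 35.6 ± 5.25 FPKM. *U2af1* and *U2af2*, whose products recognise the AG and the polypyrimidine tract, had log2 differences of 0.02 (standard error 0.30) and -0.04 (standard error 0.20). *Sf3b1*, which holds the branch point, spanned 18.6 to 25.1 FPKM in WT and 18.7 to 20.8 FPKM in Ins2-AKITA mice. For none of the 3 factors of the 3′ splice site was Ins2-AKITA replicate 2 the lower Ins2-AKITA mouse.

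*Hnrnpk*, which binds C-rich RNA, was the steadiest member in WT mice, with 127, 138 and 139 FPKM against 127 and 154 FPKM in Ins2-AKITA mice. *Hnrnpa1* spanned 64.9 to 78.2 FPKM over all 5 mice, *Hnrnpa2b1* 79.0 to 101 and *Hnrnpc* 36.4 to 48.9. *Hnrnpu* had 78.9 to 105 FPKM, and its lowest value was again in Ins2-AKITA replicate 2. *Hnrnph1*, which binds runs of G, departed from the other hnRNPs within WT, with 87.6, 74.4 and 47.4 FPKM, whereas its Ins2-AKITA values were 64.3 and 59.3 FPKM. The 6 hnRNPs had a median log2 difference of 0.05 between genotypes, from -0.13 to 0.18.

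**Figure D2:**
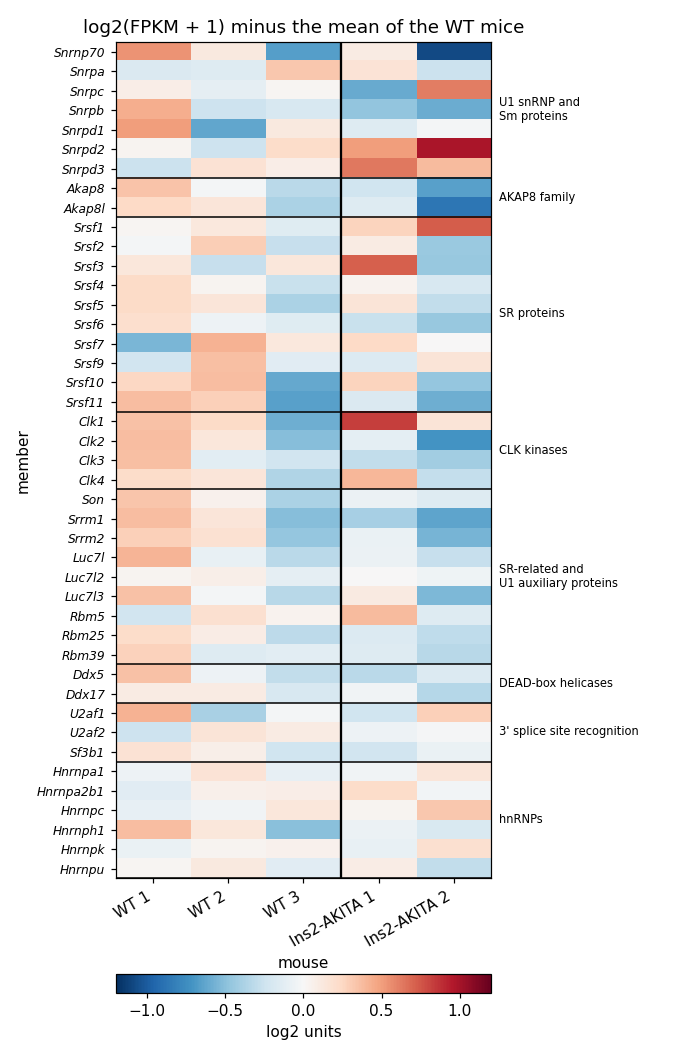
Heat map of log2(FPKM + 1) minus the mean of the 3 WT mice, for the 43 members (rows, grouped by role) in 5 mice (columns, WT left of the line), with blue below and red above the WT mean. WT replicate 3 and Ins2-AKITA replicate 2 are blue for all 4 CLK kinases except *Clk1* in the latter, and for most SR and SR-related genes, while the hnRNPs other than *Hnrnph1* stay near white. TPM scaling puts WT replicate 3 at 0.95 above the other WT mice for the median of all genes, and 0 members then have it lowest among WT mice.

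Between genotypes, 29 of the 43 members (67.4%) had a lower mean in Ins2-AKITA mice, beside 53.5% of all 16286 genes tested. This contrast was used to select the members, so nothing is read from that count. Their median log2 difference was -0.10, with a range of -0.53 to 0.74, and that of all genes tested was -0.03. By role, the median was -0.48 for the AKAP8 proteins, -0.22 for both the SR-related proteins and the helicases, -0.15 for the CLK kinases, -0.07 for the SR proteins, -0.05 for the U1 and Sm proteins and -0.04 for the factors of the 3′ splice site. Both Ins2-AKITA values lay below every WT value for 3 members (*Snrpb*, *Srsf6* and *Clk3*), beside 10.3% of all genes, and above every WT value for 3 members (*Snrpd2*, *Snrpd3* and *Srsf1*), beside 9.24% of all genes.

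With median-ratio scaling and quantile normalization 27 and 29 members had a lower mean. TPM, which gives all mice an equal total, moved the genes together, to a median log2 difference of 1.07 over all 16286, so that the sign of a member is not informative there. The members' median was then 1.43, and all 43 were above 0. Small RNAs and ribosomal RNA made up 96.7, 96.6 and 58.0% of the FPKM sum in the WT mice, against 89.6 and 40.6% in the Ins2-AKITA mice, so that TPM divides by a sum in which these RNAs weigh differently from mouse to mouse.

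**Figure D3:**
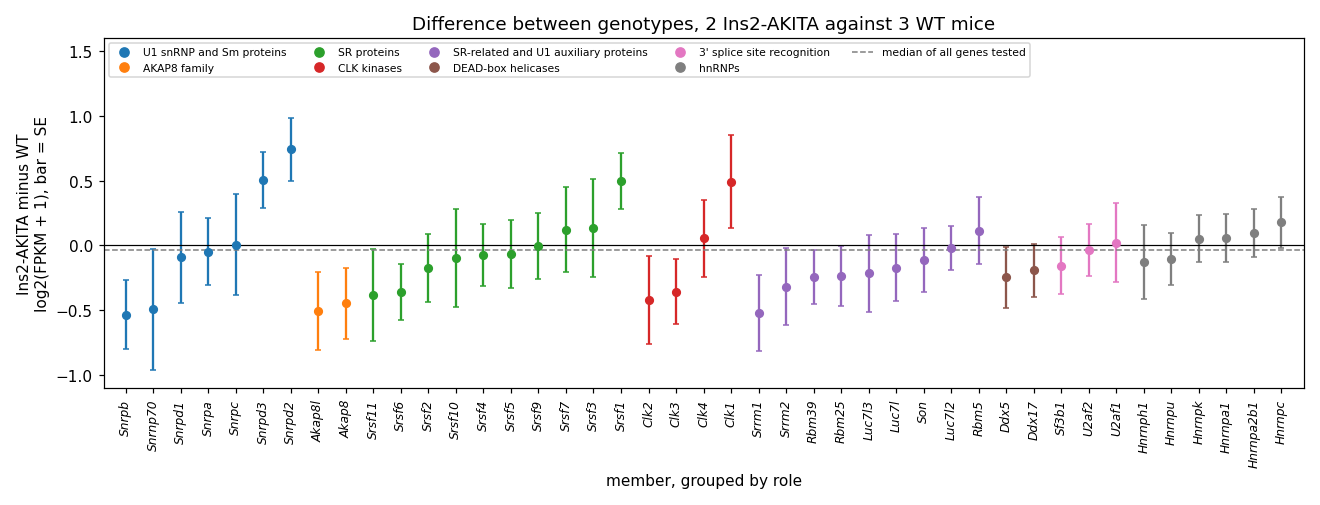
Log2 difference in log2(FPKM + 1), Ins2-AKITA minus WT, for each member (points, colored by role; bars, standard error from limma with 2 and 3 mice; dashed line, median of all genes tested, -0.03). *Snrpd2* is at the top with 0.74 and *Snrpb* at the bottom with -0.53, and the hnRNPs lie between -0.13 and 0.18. TPM scaling moves the median of all genes to 1.07, and every point above 0 with it.

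The order of mice inside the genotypes was then described over all members. Among WT mice, replicate 3 had the lowest value of 27 of the 43 members (62.8%), beside 40.1% of all genes tested. Ins2-AKITA replicate 2 was below Ins2-AKITA replicate 1 for 31 (72.1%), beside 50.4% of all genes. Both held for 23 members (53.5%), beside 25.1% of all genes. These 23 were all 4 CLK kinases, both AKAP8 genes, 7 of the 9 SR-related genes, 6 of the 10 SR genes, 2 of the 6 hnRNPs, 1 of the 2 helicases and *Snrnp70*. WT replicate 3 was singled out after its values had been seen, and single mice allow no test. *Snrnp70* and *Akap8l*, around which the members were chosen as lower in Ins2-AKITA mice, are among the 23. Both were lowest in Ins2-AKITA replicate 2, so for these 2 genes the order is not independent of the selection. The count was 23 with median-ratio scaling and 22 with quantile normalization, beside 22.4% and 18.2% of all genes. With TPM it was 0, beside 0.878% of all genes, since that scaling raised WT replicate 3 above the other WT mice for the median gene (0.95) as for the median member (1.27).

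Across the 43 members, the log2 value of WT replicate 3 minus the mean of the other WT mice ran with that of Ins2-AKITA replicate 2 minus replicate 1, although no mouse enters both (Pearson r = 0.45, Spearman rho = 0.47). These are correlations across genes, which are not independent replicates, and the points of each axis share their libraries. The same values were 0.09 and 0.22 over all 16286 genes, and the Spearman value was 0.33 over the 8372 genes at least as abundant as the lowest member. Over the 108 further splicing genes described below, the Pearson and Spearman values were 0.42 and 0.47, so the correlation was not particular to the members. The median member was at -0.30 for the WT difference and at -0.23 for the Ins2-AKITA difference, while the median gene was at -0.09 and -0.01.

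**Figure D4:**
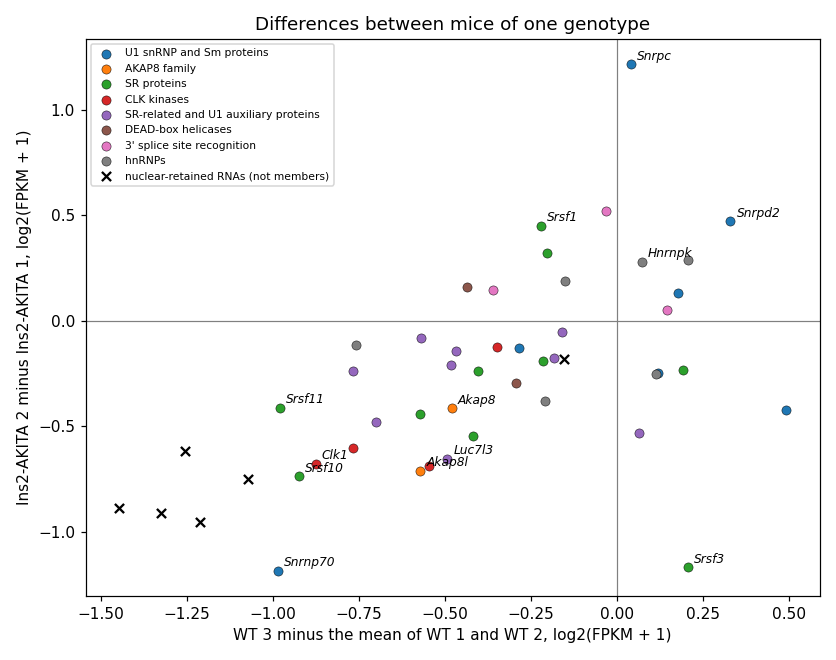
Each point is a member, colored by role, with WT replicate 3 minus the mean of WT replicates 1 and 2 on the x axis and Ins2-AKITA replicate 2 minus replicate 1 on the y axis (log2 of FPKM + 1); crosses are nuclear-retained RNAs, which are not members. *Snrnp70*, *Srsf11*, *Srsf10* and the CLK kinases lie at the lower left with 5 of the 6 crosses, and most hnRNPs lie nearer the centre. TPM scaling moves the median of all genes to 0.95 on the x axis and 1.02 on the y axis, and 0 members then have both values below 0.

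Other RNAs moved with this order of mice. Long noncoding RNAs that stay in the nucleus had a summed level of 4231, 3415 and 1577 FPKM in WT and 3046 and 1717 FPKM in Ins2-AKITA mice, and 5 of the 6 measured were lowest in WT replicate 3 among WT mice. The median of these 6 RNAs was 0.82 below the WT mean in WT replicate 3 (log2) and 0.73 below it in Ins2-AKITA replicate 2. Among them *Malat1*, a speckle RNA, had 2260, 1880 and 756 FPKM in WT and 1757 and 949 FPKM in Ins2-AKITA mice. *Malat1* and *Meg3* made up most of the summed level of these RNAs. *Miat*, also among them, had itself been singled out by the comparison of the genotypes in these same mice. The 43 members summed to 3185, 2893 and 2275 FPKM in WT and 2733 and 2306 FPKM in Ins2-AKITA mice. The 20 cytosolic ribosomal protein genes, whose mRNAs are spliced and exported in bulk, did not share the order and summed to 5066, 4593 and 5027 FPKM in WT and 4865 and 5800 FPKM in Ins2-AKITA mice. WT replicate 3 had the deepest library, and Ins2-AKITA replicate 2, with 1285055 fragments, lay between WT replicates 1 and 2 in depth. In both mice the share of small RNAs and ribosomal RNA was the lowest of the genotype. The part of these differences in the members' values was not tested.

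Markers of the cell types in the preparation also differed between mice. The 10 endothelial markers summed to 609, 838 and 483 FPKM in WT and 507 and 407 FPKM in Ins2-AKITA mice, and the 8 pericyte markers to 246, 264 and 211 FPKM and to 237 and 183 FPKM. The 5 markers of arterial smooth muscle summed to 242, 285 and 258 FPKM in WT and to 205 and 154 FPKM in Ins2-AKITA mice. The 7 astrocyte markers summed to 2118, 2543 and 2927 FPKM in WT and 3338 and 3933 FPKM in Ins2-AKITA mice, and all 7 had a higher mean in Ins2-AKITA mice. Endothelial and pericyte sums were thus lowest, and astrocyte sums highest, in WT replicate 3 within WT and in Ins2-AKITA replicate 2 within Ins2-AKITA mice. Markers of oligodendrocytes (1926 to 2613 FPKM in WT, 2096 to 2302 in Ins2-AKITA mice), neurons (744 to 822 and 741 to 890), microglia and macrophages (66.9 to 99.7 and 81.7 to 91.9) and fibroblasts (28.2 to 31.4 and 31.3 to 35.3) overlapped between genotypes, and those of erythrocytes (35.1 to 67.7 and 25.1 to 32.4) did not. Of the marker genes, *Lum* of the fibroblast list and *Hbb-b2* of the erythrocyte list were at 0 in at least 1 mouse. In bulk RNA, fewer cells of a type and less RNA per cell cannot be told apart, and the part of cell makeup in the members' values was not tested.

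Of 109 further splicing genes in 7 lists, 108 were tested. None had an adjusted p under 0.05 in limma, beside 0.0246% of all genes (4 genes, all lower in Ins2-AKITA mice). An unadjusted p under 0.05 was found for 2 in the lower direction, beside 2.93% of all genes, and for none in the higher direction, beside 1.53%. A lower mean in Ins2-AKITA mice was found for 67 (62.0%), beside 53.5% of all genes, and a higher mean for 41. The median log2 difference was -0.10, beside -0.03 over all genes tested. The most negative were *Snrpg*, *Snrpe* and *Crnkl1*. *Snrpg*, another protein of the Sm ring, had 15.1, 12.9 and 12.2 FPKM in WT and 1.72 and 4.49 FPKM in Ins2-AKITA mice, a log2 difference of -1.89 (standard error 0.36, adjusted p = 0.71 from limma). By a rough estimate, rounded to whole numbers, these values rest on 0 to 6 fragments per mouse. *Snrpe*, also of the Sm ring, had 17.1, 19.0 and 24.4 FPKM in WT and 12.7 and 8.42 FPKM in Ins2-AKITA mice (log2 difference -0.88, standard error 0.27, adjusted p = 0.90 from limma). With an estimated 3 to 19 fragments per mouse, its precision is low as well. Neither passed the threshold. Both had the sign of *Snrpb*, whereas *Snrpf* and *Snrpn* of the same list had that of *Snrpd2* and *Snrpd3*. Their log2 differences were 0.31 (standard error 0.35) and 0.26 (standard error 0.22). *Crnkl1*, a helical-repeat protein of the activated spliceosome, was at -0.73 (standard error 0.36). The most positive were *Txnl4a* of the U5 snRNP at 0.79 (standard error 0.47), the helicase *Dhx16* at 0.42 (standard error 0.29) and *Tardbp*, which encodes TDP-43, at 0.40 (standard error 0.23).

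In this wider group, WT replicate 3 was lowest in WT and Ins2-AKITA replicate 2 below replicate 1 for 33 of 108 genes (30.6%), beside 25.1% of all genes. Within it, the 18 other SR-like proteins and SR kinases had a median of -0.25 in WT replicate 3 and -0.13 in Ins2-AKITA replicate 2 relative to the WT mean, and the 21 alternative splicing regulators -0.03 and 0.02. Among the nuclear-retained RNAs, the ribosomal protein genes and 13 immediate early genes, which respond to tissue dissociation, the most negative between genotypes were the immediate early genes *Zfp36*, *Atf3* and *Ier3* (log2 differences -1.52, -0.93 and -0.90). All 3 had an adjusted p over 0.05 in limma.

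**Figure D5:**
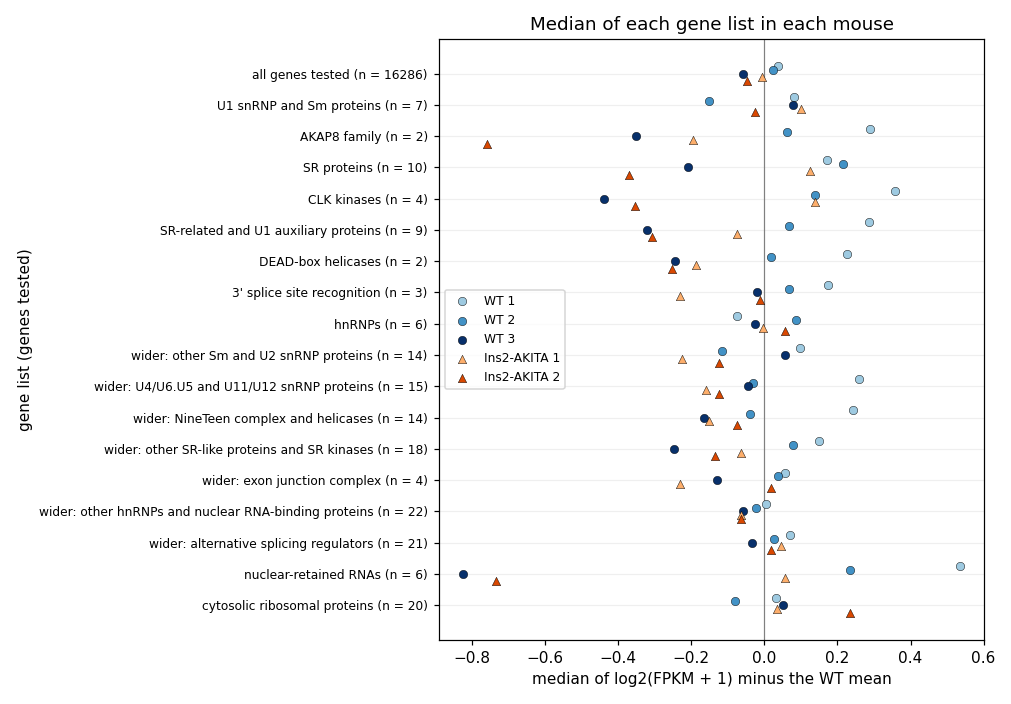
Median of log2(FPKM + 1) minus the mean of the WT mice, over all genes tested, each splicing list, nuclear-retained RNAs and ribosomal protein genes, with 1 symbol per mouse (circles, WT; triangles, Ins2-AKITA; n, genes tested in the list). The dark circle (WT replicate 3) and the dark triangle (Ins2-AKITA replicate 2) lie to the left for the AKAP8, SR, CLK and SR-related genes, and at -0.82 and -0.73 for nuclear-retained RNAs. The positions hold for FPKM, and TPM scaling moves the median gene of WT replicate 3 to 0.95 above the other WT mice.

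Features outside the measured levels were read from the annotation. The dipeptides RS and SR made up at least 5% of the positions in the longest coding sequence of 15 members (34.9%), beside 63 of 13887 protein-coding genes tested (0.454%), with a median of 3.11% in members and 0.793% in all. *Srsf6*, *Srsf4* and *Srsf7* were highest, with 21.9, 21.4 and 20.8%. The 15 members with at least 5% had a median of -0.40 in WT replicate 3 against the other WT mice, and the other 28 had -0.29. In Ins2-AKITA replicate 2 against replicate 1 the medians were -0.24 and -0.13. The other 28 include the SR genes *Srsf2* (1.46%) and *Srsf9* (4.07%). Only the longest annotated coding sequence of a gene was read, so a shorter one richer in RS and SR would be missed. The 48 genes with at least 5% that were not members had a median of -0.36 in the WT difference, with 36 below 0 (75.0%, beside 54.8% of protein-coding genes tested). In the Ins2-AKITA difference their median was -0.09, with 26 below 0 (54.2%, beside 49.3%). A transcript annotated with a retained intron was listed for 19 members (44.2%) and for 33.0% of protein-coding genes tested, and a transcript annotated as a target of nonsense-mediated decay for 17 (39.5%) and 15.7%. FPKM are summed per gene, so the share of such transcripts in a member's value is unknown. In all, 15 members overlapped another annotated gene, 11 of them on the opposite strand, and the strand setting of the counting was not given in the sources used here. How reads shared with processed copies of a gene were counted, which bears on genes such as *Hnrnpa1*, was likewise not given.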

How the data were processed

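RNA of 5 mice (3 WT, 2 Ins2-AKITA) was sequenced after depletion of ribosomal RNA, as stranded total RNA libraries. Per the labels and the submitters' processing notes, the authors mapped reads to NCBIM37 with TopHat2 2.0.4, removed duplicates with Picard 1.92 and used Cufflinks 2.2.1; what the authors deposited is 1 FPKM value per gene for each mouse, without pooling. Removing duplicates can lower high levels, and division by length can raise those of short genes. Of 37982 identifiers, 37197 matched the GENCODE vM1 annotation and 785 did not. Values were summed per symbol. The 16286 symbols that averaged 1 FPKM or more over the mice were fitted on log2(FPKM + 1) with limma 3.58.1 in R 4.3.3 (trend, two-sided, genotype only, Benjamini-Hochberg adjustment at 0.05), after a test on simulated data. A log2 difference on this scale understates the change of low genes. Each genotype held separate mice. Differences and their standard errors for the 43 members are printed without p-values. The members and the gene lists were chosen with earlier results of these data known. Named were all 43 members, by role, those with both Ins2-AKITA values outside the WT range, and the 3 genes most negative and most positive in the wider and the comparison lists, of which the most positive of the comparison lists are not reported here. *Malat1*, *Meg3*, *Miat*, *Snrpf*, *Snrpn* and the genes at 0 were named after their values were seen. Depth was estimated from steps between low FPKM values, after a length correction of 222 to 227 bases, with 97.5 to 98.0% of those values on whole multiples (tolerance 0.05), and estimated fragments cover counting error only. Fragments per gene were computed with the length of the transcript that has the longest coding sequence. They are therefore rough for short genes and for genes with several transcripts. The replicate numbers were not used as a block, since WT and Ins2-AKITA mice with 1 number are not said to be paired. As alternatives, the pseudocount was set to 0.1, the filter was dropped or raised to a mean FPKM of 5, values were rescaled (TPM, median ratios, quantiles), the prior variance was held constant, the replicate block was added, symbols took their highest row, and mice were left out singly.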

Additional observations from a re-analysis of the deposited data

How the results depend on the processing

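The number of all genes tested with an adjusted p under 0.05 in limma and lower in Ins2-AKITA mice (4) was 2 without a filter, 2 at a mean FPKM of at least 5, 2 with a constant prior variance and 30 with TPM, and the number higher (0) was 1 with a constant prior variance and 58 with TPM. With 1 mouse left out, these numbers ranged from 1 to 6 and from 0 to 10. TPM gave 0 members with a lower mean in Ins2-AKITA mice, a median of 1.43 for the members and of 1.34 for the wider splicing list, in a table whose median gene stood at 1.07. With 1 mouse left out, 24 to 32 members had a lower mean, and the members' median ran from -0.26 to -0.04. When a single Ins2-AKITA mouse remained, it was assumed to vary like the WT mice. The replicate block gave 28 members with a lower mean, a members' median of -0.26 and 1249 genes with an unadjusted p under 0.05 against 726 over all genes. WT replicate 3, which no Ins2-AKITA mouse shares a number with, adds nothing to the difference there. The numbers could not be shown to pair the mice: deviations from the genotype means correlated at 0.05 between the mice numbered 1 and at -0.03 between those numbered 2, and with 2 Ins2-AKITA mice these deviations mirror each other. The sign of the difference changed for 13 members without Ins2-AKITA replicate 2 and for 5 without Ins2-AKITA replicate 1. It changed for 9, 8 and 3 members without WT replicates 1, 2 and 3. A value could change sign and still lie within the spread between mice, as that of *Snrnp70* did. Of 602 values of single members under the alternatives, 549 stayed within that spread and 53 moved, 43 of them with TPM. The other 10 came from leaving out an Ins2-AKITA mouse: *Snrpc* was at 0.61 without replicate 1 and at -0.60 without replicate 2, *Srsf3* at -0.45 and 0.72, *Srsf1* at 0.72 and 0.27, *Hnrnpk* at 0.19 and -0.09, and *Hnrnpu* at -0.29 and 0.09. The order of mice within genotypes was checked under other scalings after the data had been seen, and the 23 members with it were 0 with TPM, beside 0.878% of all genes. Depth limits what can be seen in *Snrpc*, *Snrpd1*, *Snrpd2*, *Snrpd3* and *Srsf7*, each with fewer than 20 estimated fragments in at least 1 mouse.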
